A study of Mus musculus with 7 samples.

Results

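The genes described here encode 9 enzymes or enzyme subunits of the mitochondrial tricarboxylic acid cycle: Cs, Idh3a, Idh3b, Idh3g, Ogdh, Dlst, Suclg1, Fh1 and Mdh2. They were given by name and matched to the rows of an H3K79me2 read-count table by overlap with their mm10 RefSeq spans. All 9 genes were overlapped, by 24 of the 29397 rows in all, and the row with the highest mean count stood for each gene. H3K79me2 is dimethylation of lysine 79 of histone H3, measured here by chromatin immunoprecipitation and sequencing in C57BL/6 mouse macrophages derived from bone marrow in culture. One group of 3 libraries came from cells given 1 µM SGC0946, which inhibits the H3K79 methyltransferase DOT1L, while they differentiated, and the other 3 libraries came from cells given the solvent DMSO. All cells were grown in L929-conditioned medium as a source of M-CSF for 7 to 8 days, and no other stimulus is named in the labels. The growth protocol speaks of WT and KO mice without assigning these samples to either, and an input sample was not analysed here.

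The tricarboxylic acid cycle oxidises the acetyl group of acetyl-CoA in the mitochondrial matrix and passes the electrons to the respiratory chain. Citrate synthase joins acetyl-CoA to oxaloacetate, isocitrate and 2-oxoglutarate are then decarboxylated, and succinyl-CoA is returned through succinate, fumarate and malate to oxaloacetate. In macrophages the cycle is also known as a source of citrate for lipid synthesis and of itaconate, succinate and fumarate, which act in inflammatory signalling. H3K79me2 is laid down over the first part of transcribed genes, and only DOT1L and its partners are known to write it in mammals.

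The libraries held 2.95 to 3.13 M counts with SGC0946 and 16.7 to 19.5 M with DMSO, so that unscaled counts and shares of the library answer different questions. All 6 macrophage markers examined (Csf1r, Spi1, Cd68, Mertk, Adgre1 and Lyz2) carried a row, and their counts summed to between 3079 and 3371 with SGC0946 and between 15472 and 17456 with DMSO. Of 29 markers of other cell types, 7 carried a row (Mpo, Lck, Tcf7, Zbtb46, Klf1, Pf4 and Cxcl12). Zbtb46, known from dendritic cells, was the highest of them, with 217 to 241 counts in the SGC0946 libraries and 1694 to 1985 in the DMSO libraries, and the part of such cells in the results below was not tested. The libraries are bulk chromatin, so a lower level in all cells and a loss in some of them cannot be told apart.

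In the 8 genes for which a strand was at hand, the strongest row lay at the 5′ end. It reached to between 4.18 kb (Idh3g) and 13.3 kb (Cs) downstream of the annotated gene start, against a median of 7.58 kb over 6483 coding genes with a mean of at least 50 counts. The row contained the start in Cs, Idh3b, Idh3g and Dlst. In these genes it began 155 bp (Cs), 978 bp (Idh3b), 2482 bp (Idh3g) and 345 bp (Dlst) upstream of the start. It began 15 bp after the start in Fh1, 70 bp in Suclg1, 81 bp in Mdh2 and 391 bp after the outermost of the 6 start sites listed for Ogdh. The Ogdh row did overlap the promoter windows of 3 of these 6 sites. Among the 6483 genes, 47.5% of strongest rows contained the start. The short gene Idh3b, with a span of 5143 bp, was covered over 94.8% of its span, whereas the strongest row of Ogdh covered 10.5% of a span of 67498 bp. Idh3a, on chromosome 9, carried a row of 3172 bp at 54586378 to 54589549, which covered 16.7% of its span.

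**Figure D1:**
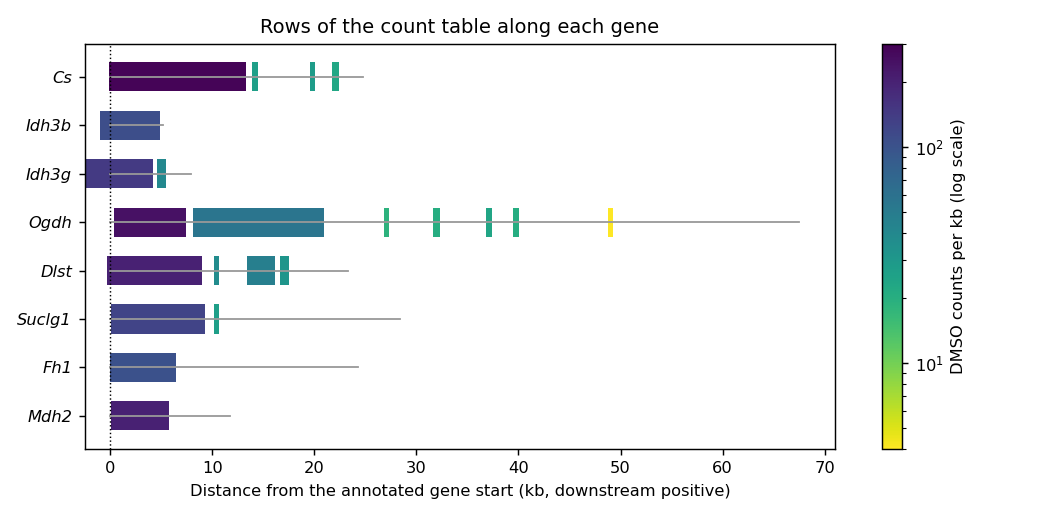
Rows of the count table along 8 of the genes, by distance from the annotated gene start in kb; grey lines are the gene spans and colour gives the mean DMSO counts per kb on a log scale. The densest row of each of these genes lies at its start, from 102 counts per kb (Fh1) to 289 (Cs), and the other rows lie further downstream at 4 to 56.1 counts per kb.

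Promoter windows are shown for the 4 genes whose row contained the start, and for Fh1, whose row stopped just short of it and which kept the smallest part of its counts. Each sequence is RefSeq's, on GRCm38.p6 (mm10), and runs 5′ to 3′ on the gene's own strand from 250 bases before the start to 50 bases after it. Capitals mark matches, on either strand, to the GC box GGGCGG, the ETS family motif CCGGAAG, the box CCAAT, the TATA box TATAAA, the E box CACGTG, the NRF1 motif CGCATGCG, the ERR family motif TCAAGGTCA and the YY1 motif AANATGGCG. The windows are chr10:128337477-128337776 on the plus strand (Cs), chr2:130284402-130284701 on the minus strand (Idh3b), chrX:73786848-73787147 on the minus strand (Idh3g), chr12:85110583-85110882 on the plus strand (Dlst) and chr1:175625586-175625885 on the minus strand (Fh1).
Cs: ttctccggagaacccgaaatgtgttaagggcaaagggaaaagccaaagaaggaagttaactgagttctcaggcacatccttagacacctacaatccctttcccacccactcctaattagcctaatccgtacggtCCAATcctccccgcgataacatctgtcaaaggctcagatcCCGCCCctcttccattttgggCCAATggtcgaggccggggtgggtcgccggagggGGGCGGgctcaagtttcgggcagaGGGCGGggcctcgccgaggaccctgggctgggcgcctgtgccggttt
Idh3b: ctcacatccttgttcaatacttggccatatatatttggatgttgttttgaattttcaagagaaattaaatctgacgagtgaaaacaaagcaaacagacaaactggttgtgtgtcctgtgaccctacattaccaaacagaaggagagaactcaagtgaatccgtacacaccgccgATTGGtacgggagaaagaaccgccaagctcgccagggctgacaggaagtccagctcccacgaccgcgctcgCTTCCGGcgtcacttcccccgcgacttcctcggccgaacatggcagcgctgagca
Idh3g: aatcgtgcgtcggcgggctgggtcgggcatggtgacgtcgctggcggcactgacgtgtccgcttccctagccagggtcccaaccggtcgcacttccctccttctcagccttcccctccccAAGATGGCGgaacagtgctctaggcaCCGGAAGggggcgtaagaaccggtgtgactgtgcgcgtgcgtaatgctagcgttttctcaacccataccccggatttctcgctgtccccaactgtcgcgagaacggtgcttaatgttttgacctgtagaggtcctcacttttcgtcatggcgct
Dlst: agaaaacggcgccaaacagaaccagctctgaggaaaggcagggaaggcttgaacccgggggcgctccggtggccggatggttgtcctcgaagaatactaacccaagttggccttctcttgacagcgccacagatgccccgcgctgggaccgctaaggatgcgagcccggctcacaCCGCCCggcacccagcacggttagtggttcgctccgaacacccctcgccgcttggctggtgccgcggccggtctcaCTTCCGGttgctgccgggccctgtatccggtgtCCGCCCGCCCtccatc
Fh1: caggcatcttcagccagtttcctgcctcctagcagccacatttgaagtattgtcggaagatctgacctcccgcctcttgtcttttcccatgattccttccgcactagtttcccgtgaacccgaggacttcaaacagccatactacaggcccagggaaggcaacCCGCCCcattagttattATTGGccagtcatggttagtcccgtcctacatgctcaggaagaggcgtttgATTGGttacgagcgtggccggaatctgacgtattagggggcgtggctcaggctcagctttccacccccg

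None of the 13 windows of the 8 genes with an entry held TATAAA, which 13.6% of 32851 promoter windows of this length did. The GC box was matched in 5 of the 8 genes (Cs, Ogdh, Dlst, Fh1 and Mdh2), against 35.7% of all windows. The ETS family motif was matched in 3 (Idh3b, Idh3g and Dlst), against 8.86%, and CCAAT in 4 (Cs, Idh3b, Ogdh and Fh1), against 37.4%. The YY1 motif was matched in Idh3g and Ogdh (2.38% of all windows), and the NRF1 motif and the E box in Ogdh (1.87% and 7.15%). No window held the ERR family motif (0.423% of all windows), and the window of Suclg1 held none of the 8 motifs. Each window held from 11 to 37 CG dinucleotides, against a median of 7 over all promoter windows. Matches were counted per gene but the percentages are per window, and Ogdh counts 6 windows among the 13, some of them overlapping. Ogdh thus had more places for a match, and its NRF1, E box and YY1 matches lay outside the window of its outermost start. A match describes letters in these windows and not a bound site.

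Cs encodes citrate synthase, which makes citrate from oxaloacetate and acetyl-CoA and opens the cycle. It was the most heavily marked of the 9 genes, in a row of 13420 bp (chromosome 10, 128337572 to 128350991). The row held 676, 627 and 655 counts in the SGC0946 libraries, against 3614, 3850 and 4152 in the DMSO libraries. Every SGC0946 library lay far below every DMSO library, and so did the library totals. Per kb, this came to 48.6 ± 1.83 counts with SGC0946 and 289 ± 20.1 with DMSO (SD, n = 3 each), and the DMSO density was above that of 94.1% of 7942 coding genes with a mean of at least 50 counts. As a share of the library, Cs held 215 ± 6.65 CPM (counts scaled to a common library total) with SGC0946 and 218 ± 7.26 with DMSO (SD, n = 3 each), and the 2 groups overlapped.

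The 3 subunits of NAD-dependent isocitrate dehydrogenase, which turns isocitrate into 2-oxoglutarate, were marked less heavily than Cs. Idh3a, the catalytic subunit, had 42, 42 and 43 counts with SGC0946, against 276, 289 and 345 with DMSO. Idh3b, a regulatory subunit, had 95, 103 and 104 counts in SGC0946 libraries (row at chromosome 2, 130279576 to 130285429), against 604, 603 and 691 in DMSO libraries. Idh3g, the other regulatory subunit, had 139, 140 and 143 counts with SGC0946 (row at chromosome X, 73782714 to 73789379), against 880, 991 and 987 with DMSO. For each subunit the unscaled counts of the SGC0946 libraries lay close together and well apart from the DMSO libraries, as the library totals did. Per kb the DMSO level went up from 95.6 ± 11.6 (Idh3a) through 108 ± 8.63 (Idh3b) to 143 ± 9.45 (Idh3g; SD, n = 3). With SGC0946 the same 3 genes had 13.4 ± 0.182, 17.2 ± 0.843 and 21.1 ± 0.312 counts per kb. The Idh3g row also covered Ssr4, a coding gene that lies beyond the Idh3g start, so its counts cannot be credited to Idh3g alone.

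Ogdh and Dlst encode the decarboxylating and the succinyltransferase subunit of the 2-oxoglutarate dehydrogenase complex, which forms succinyl-CoA. Ogdh had 287, 291 and 240 counts with SGC0946 (row at chromosome 11, 6291988 to 6299052), against 1612, 1657 and 1956 with DMSO. Dlst had 259, 275 and 253 counts with SGC0946 (row at chromosome 12, 85110477 to 85119853), against 1822, 1848 and 2046 with DMSO. The counts of both genes were alike within each group, although the row of Dlst was the longer (9377 bp, against 7065 bp for Ogdh). Per kb Ogdh had 38.6 ± 4.01 counts with SGC0946 and 247 ± 26.5 with DMSO, and Dlst had 28.0 ± 1.21 with SGC0946 and 203 ± 13.1 with DMSO (SD, n = 3 each). The Dlst row also overlapped the coding gene Prox2.

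Suclg1, Fh1 and Mdh2 serve the second part of the cycle, from succinyl-CoA back to oxaloacetate. Suclg1, the alpha subunit of succinyl-CoA synthetase, had 125, 157 and 150 counts with SGC0946 (row at chromosome 6, 73248575 to 73257831), against 1104, 1079 and 1310 with DMSO. Fh1, the fumarate hydratase that makes malate, had 89, 69 and 66 counts in SGC0946 libraries (row at chromosome 1, 175619192 to 175625620), against 640, 620 and 715 in DMSO libraries. Mdh2, the malate dehydrogenase of mitochondria, had 144, 132 and 117 counts with SGC0946 (row at chromosome 5, 135778730 to 135784407), against 1046, 1093 and 1274 with DMSO. In none of these genes did the unscaled counts of the groups overlap, and neither did the library totals. In relation to their length the rows of Suclg1 and Fh1 were sparser, with 126 ± 13.7 and 102 ± 7.79 DMSO counts per kb, than that of Mdh2 with 200.4 ± 21.2 (SD, n = 3).

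**Figure D2:**
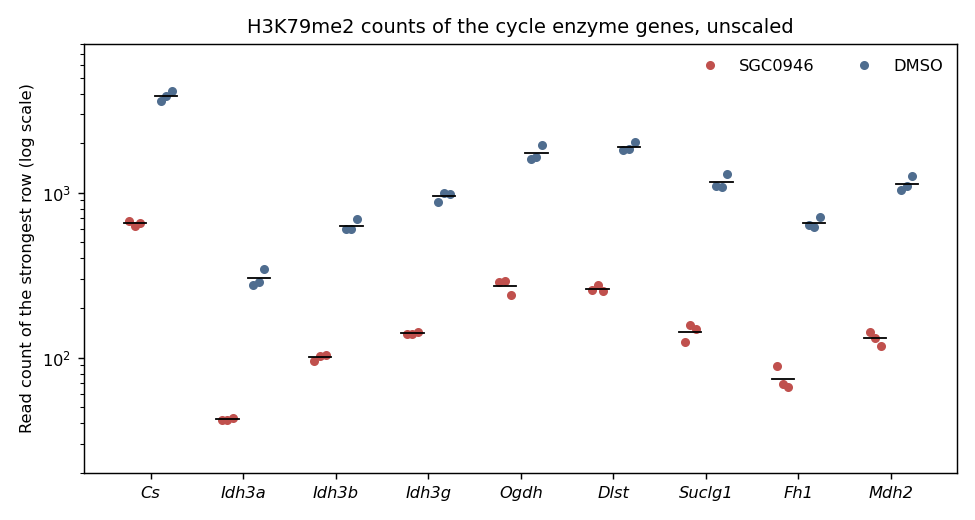
Unscaled read counts of the strongest row of each gene on a log axis; points are libraries (3 with SGC0946 to the left, 3 with DMSO to the right of each gene) and bars are means. The groups do not overlap for any of the 9 genes, from 42 to 676 counts with SGC0946 and from 276 to 4152 with DMSO. The library totals do not overlap either, and 99.8% of 9094 coding genes were called lower on unscaled counts.

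The unscaled counts of these genes with SGC0946 were then set against those with DMSO. On unscaled counts all 9 genes fell (edgeR quasi-likelihood test on equal library sizes, adjusted p of at most 5.4e-59), with log2 changes from -2.57 ± 0.11 (SE) for Cs to -3.14 ± 0.15 for Fh1. Nearly every gene did so: 99.8% of 9094 coding genes tested were called lower and 0.022% higher. The median log2 fold change was -2.84 over the 9 genes and -2.83 over all coding genes tested. In percent of the mean DMSO count, Cs kept 16.9%, Idh3b 15.9%, Ogdh 15.7%, Idh3g 14.8%, Idh3a 14.0%, Dlst 13.8%, Suclg1 12.4%, Mdh2 11.5% and Fh1 11.3%. The median over the 9 genes was 14.0%, close to the 13.7% of coding genes with a mean of at least 50 counts, of which the middle 50% kept 12.3% to 15.9%. These percentages rest on the number of reads sequenced in each library, for which the sources used here give only a nominal 40 M. No spike-in is named in the labels, so the percentages are ratios of counts and not a measured part of the mark.

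Between neighbours in this order, the ranges over the SGC0946 libraries overlapped in every case except Idh3g and Idh3a. Idh3g kept 14.6% to 15.0% and Idh3a 13.9% to 14.2% of the DMSO mean. These ranges leave out the spread of the DMSO libraries. When one library at a time was left out, Idh3g kept 14.22% to 15.07% and Idh3a 13.35% to 14.99%, and these ranges overlapped. From end to end the genes did part: Cs kept 16.2% to 17.5% in each SGC0946 library, whereas Fh1 kept 10.0% to 13.5%, Mdh2 10.3% to 12.7% and Suclg1 10.7% to 13.5%. Cs kept more than 80.9% of the 7942 coding genes did, and Fh1 and Mdh2 more than 10.5% and 12.9% of them. Cs, Idh3b, Ogdh, Idh3g and Idh3a stood above the median of these coding genes, Dlst was just above it, and Suclg1, Mdh2 and Fh1 stood below. This order was seen in the data and was not tested.

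**Figure D3:**
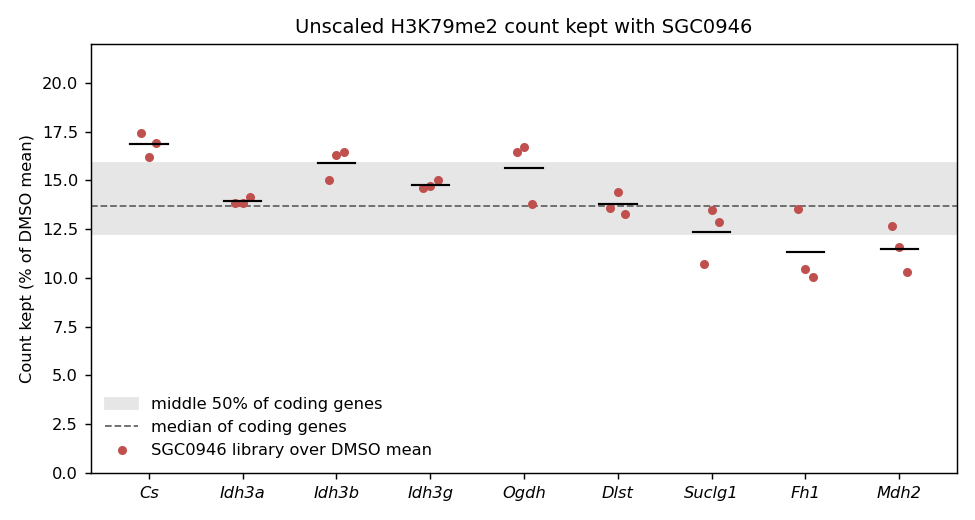
Unscaled count kept by each gene, in percent of its mean DMSO count; points are the 3 SGC0946 libraries, bars their means, the dashed line the median of 7942 coding genes (13.7%) and the grey band their middle 50%. Cs lies highest at 16.9% and Fh1 and Mdh2 lowest at 11.3% and 11.5%.

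Scaled by the library totals, a log2 fold change is the change of the gene's share of its library. All 9 rows passed the count filter. By this test 4 genes fell in share, none rose and 5 were not called, where 50.1% of 9089 coding genes were called lower and 9.98% higher (60.2% and 10.5% among 7942 with a mean of at least 50 counts), so the count of 4 of 9 is not above the background. Mdh2 fell by 0.57 on the log2 scale (SE 0.08, edgeR adjusted p = 3.27e-08), with 39.6 to 46.0 CPM in SGC0946 libraries and 62.5 to 65.3 in DMSO libraries. Fh1 changed by -0.59 ± 0.11 on the same scale (SE, adjusted p = 4.66e-06) and held 24.6 ± 3.34 CPM with SGC0946 and 37.1 ± 0.975 with DMSO (SD, n = 3 each). Suclg1 changed by -0.46 ± 0.08 (SE, adjusted p = 3.68e-06) and held 47.6 ± 6.74 CPM with SGC0946 and 65.5 ± 1.84 with DMSO. Dlst changed by -0.31 ± 0.06 (SE, adjusted p = 4.19e-05), with 86.6 ± 4.46 CPM with SGC0946 and 107.5 ± 2.31 with DMSO (SD, n = 3 each). The call of Dlst was lost with DESeq2 size factors (adjusted p = 0.0602) and in the DESeq2 Wald test (0.0782), and the range over the 14 alternatives was 5.14e-08 to 0.0782.

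The other 5 genes were not called. Their log2 changes of share were -0.29 ± 0.14 for Idh3a (SE, edgeR adjusted p = 0.127), -0.21 ± 0.09 for Idh3g (0.0538), -0.12 ± 0.06 for Ogdh (0.158), -0.10 ± 0.10 for Idh3b (0.510) and -0.02 ± 0.05 for Cs (0.826). Idh3g lay close to the threshold, and it passed when its rows were summed (adjusted p = 0.0318), when only rows with a mean of at least 50 counts were tested (0.0348) and without DMSO replicate 1 (0.0330) or 3 (0.0239). A p that misses the threshold does not show that a share stayed the same. The CPM of the groups did not overlap, with SGC0946 lower, for 7 of the 9 genes, all but Cs and Ogdh, as for 64.2% of coding genes with a mean of at least 50 counts.

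The log2 fold change was also computed under 4 scalings of the libraries, of which only library totals give a change of share. These scalings shift all genes by nearly the same amount and so leave a gene's place among the others almost as it was. The median of the coding genes tested lay at -0.29 with library totals, -0.18 with both TMM factors and DESeq2 size factors, and -0.99 when libraries were scaled on the 25% of regions that were sparsest. Set against that median, Cs lay 0.27 above it with library totals, TMM factors and DESeq2 size factors, and 0.29 above with the sparse regions. Fh1 lay below it, at -0.305 with library totals and -0.31 with each of the others, and Mdh2 at -0.28 with all 4. Idh3a and Dlst lay close to it, at -0.0037 to -0.0083 and at -0.015 to -0.028. They were a little below this median of all coding genes tested, and a little above that of the percentage kept, which was taken over the 7942 genes with a mean of at least 50 counts. The sign of the log2 fold change depended on the scaling: Cs and Idh3b turned to 0.085 and 0.0013 with TMM factors. With the sparse regions all 9 genes were called lower, as were 7660 of 9019 coding genes tested. The part of calls that were rises, among coding genes, was 16.6% with library totals, 24.6% with TMM factors, 25.1% with DESeq2 size factors, 32.6% in the DESeq2 Wald test and 1.35% with the sparse regions.

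**Figure D4:**
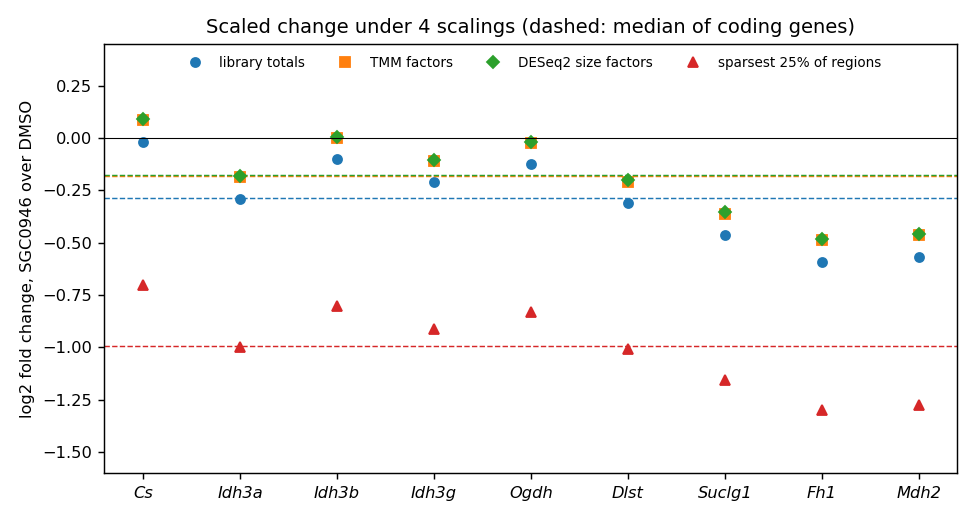
Log2 fold change of SGC0946 over DMSO for each gene under 4 scalings of the libraries; dashed lines are the medians of all coding genes tested, at -0.29, -0.18, -0.18 and -0.99. The scalings shift all genes together, with Cs above and Suclg1, Fh1 and Mdh2 below the median in each.

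Subunits of one complex were compared as ratios within a library, which no scaling of libraries alters. The log2 ratio of Idh3a to Idh3b was -1.25 ± 0.06 with SGC0946 and -1.06 ± 0.06 with DMSO (SD, n = 3 each; exact 2-sided permutation p = 0.1, the lowest value possible with 3 libraries a group). The ratio of Idh3a to Idh3g was -1.73 ± 0.0053 with SGC0946 and -1.66 ± 0.13 with DMSO (exact permutation p = 0.4). Idh3b to Idh3g gave -0.48 ± 0.06 with SGC0946 and -0.59 ± 0.11 with DMSO (exact permutation p = 0.3). Within the 2-oxoglutarate dehydrogenase complex, Ogdh to Dlst gave 0.05 ± 0.12 with SGC0946 and -0.13 ± 0.06 with DMSO (exact permutation p = 0.2). The adjusted p of all 4 ratios was 0.4, and the design could not have taken any single p below 0.1. The differences were small, from -0.18 for Idh3a against Idh3b to 0.18 for Ogdh against Dlst on the log2 scale.

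Beyond the strongest rows, 15 further rows lay inside 6 of the genes, and 13 of them averaged under 50 counts with DMSO. Only Ogdh and Dlst had larger ones. The second row of Ogdh, 12847 bp long and directly downstream of the first, had 103, 105 and 89 counts with SGC0946, against 747, 631 and 783 with DMSO. It kept 13.7% and fell in share (log2 fold change -0.31, edgeR adjusted p = 0.0106), the one call among the 8 further rows that were tested, where 23.3% of all 23367 regions tested were called lower and 6.16% higher. The first row of Ogdh kept 15.7% and was not called, and the difference between both rows was not tested. A row of 2774 bp in Dlst had 21, 14 and 15 counts with SGC0946, against 153, 114 and 129 with DMSO, and kept 12.6%. The sparsest row, 500 bp long and furthest downstream in Ogdh, had 3, 11 and 1 counts with SGC0946 and 3, 2 and 1 with DMSO, and these groups overlapped. The strongest row held 98.6% of the counts of Cs with SGC0946 and 98.8% with DMSO, but 69.4% of those of Ogdh with SGC0946 and 69.3% with DMSO.

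Other enzymes of the cycle were read from the same fit. All 8 genes of this list (Idh2, Dld, Suclg2, Sucla2 and Sdha to Sdhd) carried a row, and in share 7 fell and 1 rose, with a median log2 change of -0.31. Over coding genes 50.1% fell, 9.98% rose and the median was -0.29. Dld, the dihydrolipoyl dehydrogenase shared by the 2-oxoglutarate and pyruvate complexes, kept 10.6% (log2 share -0.68, edgeR adjusted p = 1.8e-09). Idh2, the NADP-dependent isocitrate dehydrogenase, kept 12.4% (log2 share -0.46). The subunits of succinate dehydrogenase, which links the cycle to the respiratory chain, fell too, with log2 share changes of -0.48 (Sdhc), -0.31 (Sdhd), -0.29 (Sdhb) and -0.16 (Sdha). They kept 12.3% (Sdhc), 13.8% (Sdhd), 14.0% (Sdhb) and 15.3% (Sdha) of the DMSO count. Sucla2, the ATP-forming partner of Suclg1, fell likewise (-0.31, adjusted p = 0.010). Suclg2, its GTP-forming partner, averaged 12 counts with SGC0946 and 40 with DMSO and rose in share by 0.81 (adjusted p = 0.043), while its unscaled count fell. That call was lost in the DESeq2 Wald test, with the sparse regions, and without DMSO replicate 2 or SGC0946 replicate 2 or 3. With TMM factors, DESeq2 size factors or the DESeq2 Wald test, 3 of the 8 fell in place of 7, and Sucla2, Sdha, Sdhb and Sdhd were the calls lost. Calls over coding genes were fewer in these settings too. There 3341 of 9145, 3080 of 9118 and 2446 of 9514 were called lower, against 4557 of 9089 with library totals. The call of Sdha (adjusted p = 0.030) was also lost with the replicate block and without DMSO replicate 2 or 3 or SGC0946 replicate 2 or 3, and that of Sdhb without SGC0946 replicate 3. The row of Sdha also overlapped the coding genes Ccdc127 and Lrrc14b, and that of Sdhd overlapped Nkapd1 and Timm8b.

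Of 14 genes for the entry of pyruvate into the cycle and its control, 11 carried a row and were tested. In share 5 fell, none rose and 6 were not called (median log2 share -0.35), so that the count of falls was not above the 50.1% of coding genes called lower. Those that fell were the phosphatase genes Pdp2 (-0.70) and Pdp1 (-0.53), which switch pyruvate dehydrogenase on, the mitochondrial pyruvate carrier gene Mpc1 (-0.67), Pdhx (-0.49) and Pdha1 (-0.29) of the dehydrogenase complex. The call of Pdha1 (edgeR adjusted p = 0.018) was lost with TMM factors, DESeq2 size factors and the DESeq2 Wald test, and without SGC0946 replicate 1 or 2. Pdhb, Dlat, Pdk1, Pdk3, Pdpr and Mpc2 were not called, and Pdk2, Pdk4 and Pcx carried no row. Mpc1 kept 10.8% of its DMSO count (155 counts with SGC0946 and 1439 with DMSO), and Mpc2, its partner in the carrier, kept 18.3% (50.3 and 276 counts).

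The last list held 20 genes that feed the cycle or use its metabolites, of which 12 were tested. In share 9 fell, 1 rose and 2 were not called (median log2 share -0.43), against 50.1% lower, 9.98% higher and a median of -0.29 over coding genes. All 12 had a mean of at least 50 counts. Among coding genes above that mean 60.2% were lower, 10.5% were higher and the median was -0.32. The largest falls were those of Aco1, the cytosolic aconitase, with a log2 share of -0.75 (edgeR adjusted p = 2.5e-13), the fatty acid import enzyme Cpt1a (-0.59), the malic enzyme Me2 (-0.55) and the cytosolic malate dehydrogenase Mdh1 (-0.51). Got1 (-0.49) and Got2 (-0.39), the aspartate aminotransferases, Acly (-0.48), which splits exported citrate, and the assembly factor Sdhaf2 (-0.38) fell as well. Idh1, the cytosolic NADP-dependent isocitrate dehydrogenase, was called at -0.17 (adjusted p = 0.039). This call was lost with TMM factors, DESeq2 size factors, the DESeq2 Wald test and the replicate block, and without DMSO replicate 2 or 3 or SGC0946 replicate 1 or 3, and that of Got2 was lost in the DESeq2 Wald test. The rows of Mdh1, Sdhaf2 and Idh1 also overlapped the coding genes Wdpcp, Cpsf7 and Pikfyve. Slc25a11, the 2-oxoglutarate carrier, kept 25.8% and rose in share by 0.60 (adjusted p = 1.2e-16), in a row that also covered Eno3, Pfn1 and Rnf167. That rise was lost with scaling on the sparse regions, and the unscaled count of the gene fell. Glud1 and Slc25a10 were not called. No row overlapped Acod1, which makes itaconate, or Me1, Me3, Slc25a1, Ogdhl, Sdhaf1, Sdhaf3 and Sdhaf4.

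**Figure D5:**
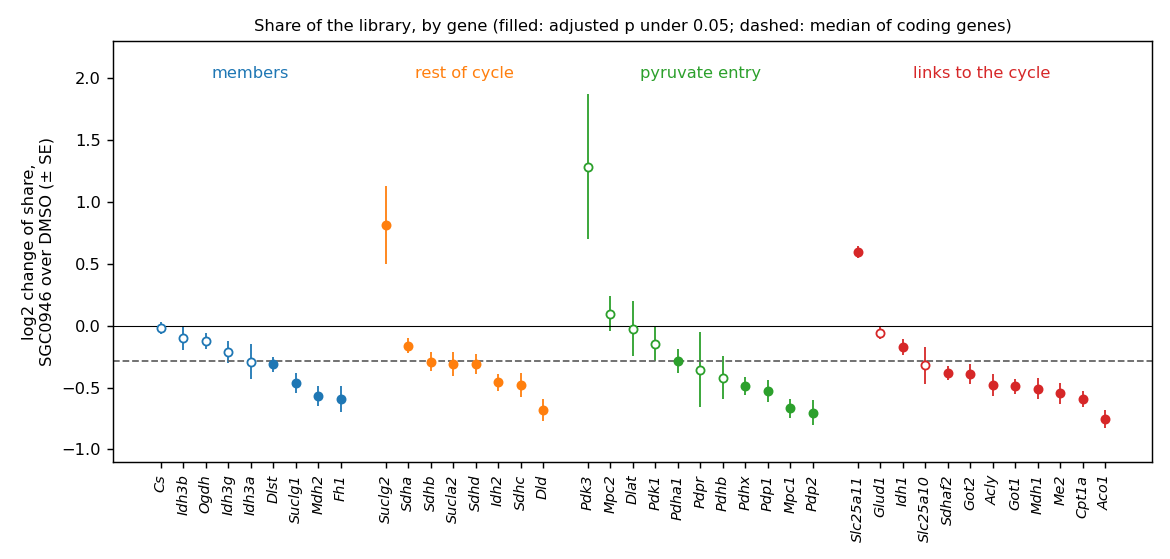
Log2 change of the share of the library, SGC0946 over DMSO, with its SE, for the 9 genes and the 3 other lists; filled points passed an adjusted p of 0.05 and the dashed line is the median of coding genes (-0.29). The 9 genes lie between -0.59 and -0.02, and Suclg2 and Slc25a11 are the filled points above 0.

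Levels and responses of the 9 genes were also set beside each other. The DMSO density ran from 95.6 counts per kb (Idh3a) to 289 (Cs), with a median of 143, against 125 for the 7942 coding genes. With SGC0946 the medians were 21.1 for the 9 genes and 15.7 for coding genes. Across the 9 genes, which share libraries and depth, the percentage kept and the DMSO density had a Spearman rho of 0.417, and the rho across the 7942 coding genes was 0.175. Both are descriptions over genes and not over replicates. The median profile of the 9 genes over the 6 libraries, in log2 counts per kb, lay nearest to Idh3g among them (Euclidean distance 0.057). Of 7931 other coding genes the nearest were Ctdspl2 (distance 0.118), Skap2 (0.137), Skil (0.158), Prpf3 (0.159) and Bhlhe40 (0.170).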

How the data were processed

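H3K79me2 was measured by ChIP-seq in 3 SGC0946 and 3 DMSO libraries, grouped by their sample titles. As deposited by the authors, the table gives integer read counts per region with no visible scaling. The submitters' processing notes name mm10, R 3.6.3, ChIPseeker 1.20.0, bedtools 2.27.0, HISAT2 and HOMER 4.11.1, in no stated roles. The sources used here do not say how regions were called, whether duplicates were removed or how reads mapping to several places were counted, and each could change the counts. Library totals ran from 2.95 to 19.5 M.

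Rows were read as zero-based, are given 1-based, and were matched to RefSeq gene spans of GRCm38.p6 without exons (Python 3.11.15, pandas 2.3.3). Every other gene stood, as the 9 did, by its overlapping row with the highest mean count. All rows entered one fit in edgeR 4.0.16 under R 4.3.3 (quasi-likelihood F test, filterByExpr, Benjamini-Hochberg threshold 0.05), with library totals and normalization factors of 1, and again with equal library sizes. Standard errors were derived from the fold change and F. Alternatives were TMM, DESeq2 1.42.0 size factors and Wald test, other filters, scaling on sparse regions, left-out libraries, a replicate block and rows summed per gene. In counts simulated for this comparison (23511 regions tested), edgeR recovered 22% of regions changed 1.25-fold, 52% of those changed 1.5-fold, 76% of those changed 2-fold and 98% of those changed 4-fold. It made 7 false calls. The 200 changed regions were drawn from rows of mixed mean counts, at one fixed dispersion of 0.002, so these percentages do not describe the 9 genes in particular. Pairs of libraries of a group differed by more than sampling noise (chi-square per degree of freedom 1.32 to 2.38). The replicates are called biological, but no animal is named, so p-values measure the spread between these samples.

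The genes and lists were chosen with earlier results of these data known. All 9 genes are named, as are the genes of the 3 other lists called in share, with their log2 changes. Also named are the 5 coding genes with the smallest distance of log2(counts per kb + 0.5) to the median profile of the 9. Some genes of the lists as first drawn up, or overlapping a listed row, are not reported here.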

Additional observations from a re-analysis of the deposited data

How the results depend on the processing

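Suclg1, Fh1 and Mdh2 were called lower under all 14 alternatives to the test in share, and the 9 unscaled falls held under every alternative run. The number of the 9 genes called lower was 4 with library totals, 3 with DESeq2 size factors and in the DESeq2 Wald test, 5 above a mean of 50 counts and with rows summed per gene, 9 when scaled on the sparsest 25% of regions, and 4 to 5 when one library was left out. Where it was 5, Idh3g was added. Over coding genes, 4557 of 9089 were called lower with library totals and 7660 of 9019 with the sparse regions. With DESeq2 size factors 3080 of 9118 were, and in the DESeq2 Wald test 2446 of 9514. Above a mean of 50 counts 4785 of 7942 were called lower, and with rows summed per gene 4742 of 9128. The log2 fold change of Cs turned to 0.085, 0.093 and 0.094 with TMM factors, DESeq2 size factors and the DESeq2 Wald test. In share it lay between -0.041 and 0.0073 with one library left out. The log2 fold change of Idh3b turned to 0.0013, 0.0071 and 0.0092 with TMM factors, DESeq2 size factors and the DESeq2 Wald test. None of these values passed the test. The median percentage kept was 13.5% to 15.0% with one library left out, against 14.0% with all.

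Among the other cycle enzymes 3 were called lower with TMM factors, DESeq2 size factors and the DESeq2 Wald test, against 7. In the same settings 3341 of 9145, 3080 of 9118 and 2446 of 9514 coding genes were called lower, against 4557 of 9089. Of the other cycle enzymes 0 were called higher in the DESeq2 Wald test, above a mean of 50 counts (where Suclg2 was not tested) and with the sparse regions, and 0 to 1 with one library left out. The sparse regions gave 10 pyruvate genes called lower, against 5, and 0 linked genes called higher, against 1. Of 9019 coding genes tested in that setting, 7660 were called lower and 105 higher. Of 23367 regions tested, 5439 were called lower and 1440 higher in share. The counts were 2831 and 2505 of 29397 in the DESeq2 Wald test and 13501 and 195 of 22351 with the sparse regions. Rises numbered 808 of 11055 above a mean of 50 counts and 2784 of 29397 with no filter. With one library left out they numbered 918 to 2155, with 13526 to 28733 tested. The number tested differed between these settings, so the counts are not directly comparable. On unscaled counts 24820 of 24895 regions fell and 5 rose. Above a mean of 50 counts 11055 fell and 0 rose (of 11055 tested, so fewer could be called). With rows summed per gene 9094 of 9116 fell. With no filter 197 of 29397 rose, and 5 to 9 rose with one library left out.

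The sample titles number the libraries of both groups in the same way, and the main fit did not take the numbers as pairs. Deviations of same-numbered libraries had correlations of 0.00921, -0.114 and -0.012 over 11055 rows. Those of differently numbered libraries ran from -0.0983 to 0.102. The noise of low counts can hide a shared deviation, so these values cannot decide whether the libraries were paired. With the replicate block, 4 of the 9 genes were again called lower in share and 9 on unscaled counts. Counts set the precision: with 42 to 43 SGC0946 counts, Idh3a had the largest SE of the 9 genes (0.14).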
